A study of Mus musculus with 3 samples.

Results

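The genes described here encode subunits of the Polycomb repressive complexes, namely Ezh1, Ezh2, Eed, Suz12, Jarid2 and Mtf2 of complex 2 (PRC2) and Ring1, Rnf2, Bmi1 and Cbx7 of complex 1 (PRC1). Their members on the array are all probes whose RefSeq accession belongs to 1 of these 10 symbols, which gave 14 of 39429 distinct probes. RNA came from mouse embryoid bodies, which are aggregates of differentiating embryonic stem cells, at day 8 of a cardiac differentiation protocol. One group was Hopx-/- and received 12.5 µM XAV939, a tankyrase inhibitor that lowers Wnt signalling through β-catenin. The other was Hopx+/-, with no inhibitor named in its labels. Each of 3 two-colour Agilent arrays set the first directly against the second, so genotype and inhibitor cannot be told apart. Both kinds of stem cell line were derived from blastocysts, kept on mouse embryonic fibroblast feeders and differentiated in hanging drops, then plated in serum-free medium with VEGF, bFGF and FGF10. The labels call the 3 arrays biological replicates but do not say whether each came from a separate line, so the p-values measure the spread between these arrays.

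Polycomb proteins keep developmental genes silent. PRC2 trimethylates a lysine of histone H3 through EZH1 or EZH2, which need EED and SUZ12 for activity. PRC1 attaches ubiquitin to a core histone through RING1 or RNF2, paired with a PCGF protein such as BMI1, and canonical forms read the PRC2 mark through a CBX protein such as CBX7. In embryonic stem cells these complexes hold regulators of cell lineages in a silent but inducible state, and their subunit composition changes as the cells differentiate.

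All ratios below are log2 of Hopx-/- with XAV939 over Hopx+/-. By the labels, Cy5 holds the Hopx-/- RNA throughout. Over all probes, however, the red over green ratios of replicate 3 ran against replicate 1 (r = -0.86) and replicate 2 (r = -0.89), whereas the latter pair ran together (r = 0.95). Replicate 3 was turned, as its sign is in the authors' processed values. The direction is therefore likely rather than settled, and its basis is how replicates 1 and 2 are labelled, the sign of the authors' values, and Hopx itself, whose probes lay at -2.71 ± 0.05 and -2.25 ± 0.15 (SD, n = 3). If it were the opposite one, every sign below would turn, and Ezh2 would be 1.87-fold lower and Ezh1 2.63-fold higher. With replicate 3 used as labelled, limma called 0 genes, members included, at an adjusted p below 0.05, with 13 higher and 27 lower at an unadjusted p below 0.05, none of them a member. Between 56.6% and 68.0% of non-control spots were well above background in a channel, and the number of arrays limits the precision.

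Of the 10 genes, 9 could be tested; each gene was read from the brightest of its probes that exceeded background in 1 or both channels of all 3 arrays. Ezh2, Jarid2 and Eed were higher in the Hopx-/- cultures with inhibitor and Ezh1 and Rnf2 were lower, while Suz12, Mtf2, Ring1 and Bmi1 did not pass. The test was limma's moderated test over 14710 genes, with Benjamini-Hochberg adjusted p-values called below 0.05. That is 5 of 9 members called, or 55.6%, against 64.5% of all genes tested (31.5% higher and 33% lower). A share this near the background is no result about the subunits as a group; the median absolute ratio was 0.31 for the members and 0.44 for all genes. Ezh1, by its brightest probe, alone among them moved by 1 or more on the log2 scale. Of all genes, 7.78% rose and 9.56% fell by that much. The second Ezh1 probe lay at -0.91, and Ezh2 reached 1.12 with median centring and 1.03 without replicate 3. The split of calls over all genes was 48.9% higher with loess and 60.0% with median centring, which moved the median of all genes by 0.11. In bulk RNA, fewer cells of a type and less RNA per cell cannot be told apart.

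**Figure D1:**
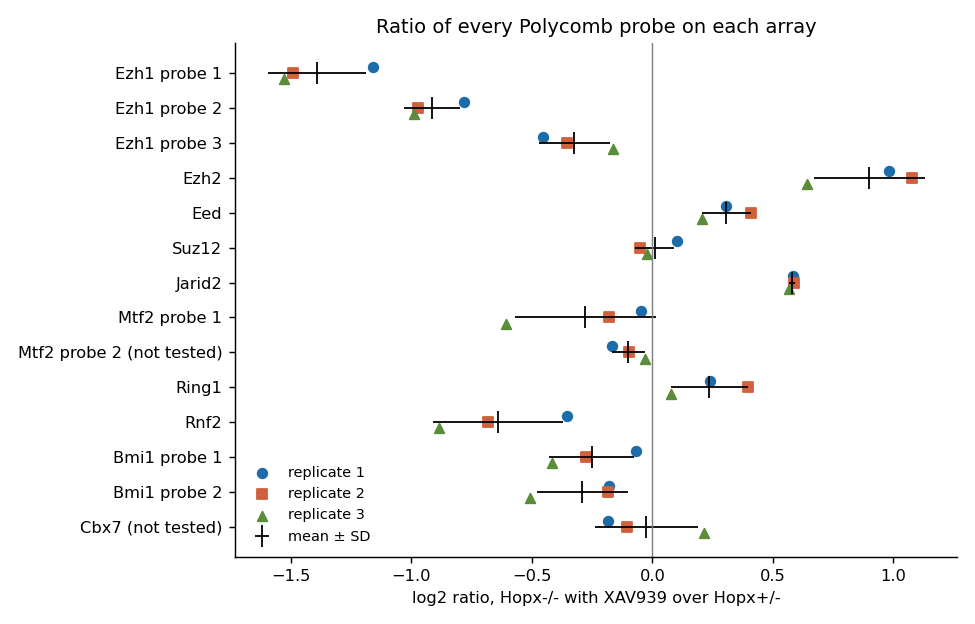
Log2 ratio (x axis) of each of the 14 probes of the 10 Polycomb genes (y axis; probes of a gene numbered from the brightest) on each of the 3 arrays, with the mean and SD as bars. All 3 Ezh1 probes lie below 0 on every array, from -1.53 to -0.16, and Ezh2 lies above 0 on every array, from 0.64 to 1.08. The dimmest Ezh1 probe was not well above background in the Hopx-/- cultures on any array.

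The catalytic subunits of PRC2 moved in opposite directions. Ezh2 encodes the methyltransferase of dividing and early embryonic cells, and Ezh1 its relative that persists in cells that divide less. The Ezh2 signal, as normalized log2 intensity, was 11.79, 11.76 and 11.54 in the Hopx-/- cultures with inhibitor of replicates 1, 2 and 3 and 10.80, 10.68 and 10.90 in the Hopx+/- ones. The groups did not overlap, and the ratio was 0.90 ± 0.23, a 1.87-fold rise (adjusted p = 0.000156 by limma). Replicate 3 gave the smallest of the Ezh2 ratios, 0.64, against 0.98 and 1.08.

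Ezh1, read from its brightest probe, had signals of 11.91, 11.80 and 11.75 with inhibitor and 13.07, 13.30 and 13.28 in the heterozygous cultures. Every heterozygous value was above every value of the null cultures, and the ratio of -1.39 ± 0.20 is a 2.63-fold fall (adjusted p = 9.84e-06 by limma). Its size was larger than that of 91.4% of genes, against 78.8% for Ezh2. The ratios of the other Ezh1 probes were also negative here, but smaller in size. The second lay at -0.91 ± 0.12, or 1.88-fold. The dimmest Ezh1 probe exceeded background on 3 of 3 arrays for the heterozygous cultures but on 0 of 3 for the null ones. Its measured ratio was -0.32 ± 0.15. Its null signals, 5.96, 6.03 and 6.23, lay within or below the range of the lowest signals marked well above background, 5.98 to 6.32. In the authors' processed values its ratios were 0.023, -0.231 and 0.147 on replicates 1, 2 and 3. Its direction therefore depends on the processing, and no fold is given for it. All of these probes carry the same RefSeq accession; their sequences are not used here, and why they differ in size was not tested. The ratio of Ezh2 exceeded that of the brightest Ezh1 probe by 2.14, 2.57 and 2.17 on the 3 arrays.

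The sequence before the start site of Ezh1 is shown because its ratio was farthest from 0 among the members, and that of Suz12 because it alone among them holds letters of an E2F site. The E2F factors drive genes of DNA replication. Whether they bear on the values of the members was not tested. Each is the 250 bases before a RefSeq start on build GRCm38.p6, 5′ to 3′ along the gene, with any match to TTTCCCGC, TTTGGCGC, TTTCGCGC or TTTGCCGC on either strand in capitals. Ezh1 lies at chr11:101226464-101226713 on the minus strand and Suz12 at chr11:79992856-79993105 on the plus strand, both just outside the annotated gene.
Ezh1: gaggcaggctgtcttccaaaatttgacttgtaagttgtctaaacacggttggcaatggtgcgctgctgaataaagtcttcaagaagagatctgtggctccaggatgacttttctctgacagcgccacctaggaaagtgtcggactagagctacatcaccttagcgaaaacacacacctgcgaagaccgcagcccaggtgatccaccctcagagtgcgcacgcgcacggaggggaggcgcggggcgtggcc
Suz12: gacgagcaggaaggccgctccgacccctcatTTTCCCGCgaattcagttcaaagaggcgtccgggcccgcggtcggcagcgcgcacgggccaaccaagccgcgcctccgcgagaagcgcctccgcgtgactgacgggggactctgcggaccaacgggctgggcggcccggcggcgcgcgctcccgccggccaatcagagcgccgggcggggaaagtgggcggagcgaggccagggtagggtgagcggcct
The Suz12 match begins 219 bases before the start. The windows of Ezh1 and Ezh2 hold none of the letters, which says only that they are not in these windows. Of 12 windows of the 10 genes 1 held a match, against 1.86% of 32851 windows of all genes, and 3.64% of 11664 tested genes with a window held one. Of the members' windows, 7 lay outside the annotated gene and 5 precede a start within it, those of Cbx7, Ezh2, 1 of Jarid2 and both of Mtf2; 240 of the 250 bases of the Ezh2 window lie inside the gene. The members' windows had a median GC content of 64.8%, against 52.4% for all windows.

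**Figure D2:**
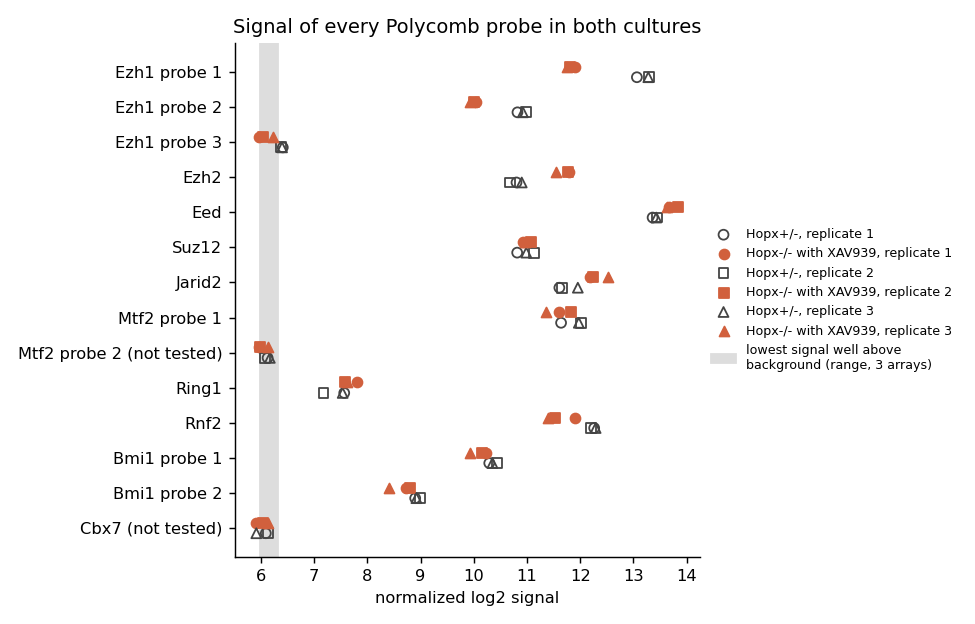
Normalized log2 signal (x axis) of each probe (y axis) in the Hopx-/- cultures with XAV939 (filled) and in the Hopx+/- cultures (open) on each array, with the range of the lowest signal well above background in grey. Ezh2, Eed, Jarid2 and Ring1 lie higher in all null values than in any heterozygous one, though Ring1 only just (7.572 against 7.566). Ezh1, Rnf2 and Bmi1 lie lower, and Cbx7 and the second Mtf2 probe lie within the grey band or below it.

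The scaffold subunits moved little. Eed, whose protein binds the methyl mark and stimulates the enzyme, had signals of 13.67, 13.85 and 13.64 in the null cultures with inhibitor and 13.36, 13.44 and 13.43 in the heterozygous ones. The groups did not overlap, with a ratio of 0.31 ± 0.10 (1.24-fold, adjusted p = 0.0247 by limma). The Eed call ended with marked local backgrounds kept (adjusted p = 0.0519), median centring (0.0839) and the authors' processed values (0.068), as well as without replicate 1 (0.118) or replicate 2 (0.217); its direction stayed the same in each. Suz12, which holds the complex together, had overlapping signals of 10.92, 11.08 and 10.97 against 10.82, 11.13 and 10.99. Its ratio was 0.01 ± 0.08 (adjusted p = 0.944 by limma), with a 95% interval from -0.22 to 0.24.

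The remaining core genes, the histone chaperones Rbbp4 and Rbbp7, passed in opposite directions. Rbbp7 lay at -1.81 ± 0.15, with its probe saturated in the heterozygous culture on 1 of 3 arrays, and Rbbp4 at 0.59 ± 0.05. A second probe of each had the same sign, at -1.52 ± 0.07 for Rbbp7 and 1.38 ± 0.06 for Rbbp4. These chaperones also belong to other histone complexes. Of 6 core genes, 3 were higher, 2 lower and 1 did not pass, with a median ratio of 0.16 against -0.01 for all genes.

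Among the accessory subunits, Jarid2, which recruits PRC2 and stimulates it in stem cells, had signals of 12.19, 12.24 and 12.52 with inhibitor against 11.61, 11.66 and 11.96. It was higher on every array by nearly the same amount, 0.59, 0.59 and 0.57 (0.58 ± 0.01, 1.49-fold, adjusted p = 0.000739 by limma). Only 0.27% of the genes tested had a smaller SD over the 3 arrays. In the authors' processed values the Jarid2 ratios were less alike, at 0.41, 0.50 and 0.53 on replicates 1, 2 and 3. Mtf2 encodes a Polycomb-like protein that binds unmethylated CpG-rich DNA. It had overlapping signals of 11.60, 11.83 and 11.37 in the null cultures with inhibitor and 11.64, 12.01 and 11.97 in the heterozygous ones. Its ratios were -0.05, -0.18 and -0.61 (-0.28 ± 0.29, adjusted p = 0.0817 by limma), with replicate 3 lowest. Mtf2 passed as lower only with a dye term in the fit (-0.36, adjusted p = 0.00211 by limma). That fit takes replicate 3 as a dye swap, which the labels do not name, and fits it exactly. The residual spread then comes from replicates 1 and 2 alone, and this holds for every dye-term value below. The adjusted p of Mtf2 reached 0.956 over the alternatives with replicate 3 turned, and 0.995 with replicate 3 as labelled. A second Mtf2 probe, for another accession, was not well above background in either culture on any array and was not tested.

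The 8 accessory genes listed held 3 that rose, 3 that fell and 2 that did not pass, with a median of -0.15. The Polycomb-like genes were Phf1, lower at -0.88 ± 0.22, and Phf19, at -0.01 ± 0.12 and not past the test. Epop, which joins PRC2 to elongin in stem cells, fell (-0.99 ± 0.44), as did Lcor (-0.86 ± 0.29; null cultures above background on 2 of 3 arrays), whose locus also encodes a PRC2 cofactor. Ezhip, an inhibitor of the enzyme, rose (0.99 ± 0.21; 2 of 3 arrays in the heterozygous cultures). Both Lcor and Ezhip lost their call with marked local backgrounds kept. Aebp2 rose at 0.57 ± 0.09 by its brightest probe, but its other probe was called lower, at -0.50 ± 0.21, so its direction depends on the probe, and it was not called with median centring or the mean over probes.

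Of the ubiquitin ligases of PRC1, Rnf2 was lower and Ring1 did not pass. Rnf2, the main ligase in stem cells, had signals of 11.91, 11.52 and 11.40 with inhibitor and 12.26, 12.20 and 12.29 in the heterozygous cultures. The groups did not overlap, and the ratio of -0.64 ± 0.27 was a 1.56-fold fall (adjusted p = 0.0016 by limma). The Rnf2 call ended when marked local backgrounds were kept (-0.57, adjusted p = 0.052) and under median centring (-0.38, adjusted p = 0.304). Across the alternatives with replicate 3 turned, the adjusted p of Rnf2 by limma ran between 7.84e-05 and 0.304. It was 0.995 with replicate 3 as labelled, where no gene passed. Its relative Ring1 had dimmer signals of 7.81, 7.57 and 7.61 against 7.57, 7.18 and 7.54. These were only just apart, with the lowest null value at 7.572 and the highest heterozygous one at 7.566. The Ring1 ratio of 0.24 ± 0.16 did not pass (adjusted p = 0.079 by limma, 95% interval -0.01 to 0.48). Ring1 passed as higher without replicate 3 (0.32, adjusted p = 0.0105), with Agilent's own log ratio (0.42, adjusted p = 0.0194) and with a dye term (0.20, adjusted p = 0.0432).

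Bmi1, the PCGF partner that helps stem cells of many tissues to renew, lay slightly lower by both of its probes. The brighter probe had signals of 10.23, 10.16 and 9.94 in the null cultures with inhibitor and 10.29, 10.43 and 10.35 in the heterozygous ones. Its ratio was -0.25 ± 0.18 (adjusted p = 0.068 by limma, 95% interval -0.50 to -0.01). The dimmer one, at 8.72, 8.81 and 8.41 against 8.90, 8.99 and 8.92, gave -0.29 ± 0.19 and passed when adjusted over all 24384 probes tested (adjusted p = 0.046 by limma). With the mean over both probes Bmi1 passed among the genes (-0.27, adjusted p = 0.0408), and with a dye term as well (-0.29, adjusted p = 0.00841). By probe, 8 of the 12 tested probes of the members were called, 3 higher and 5 lower, against 60.2% of all probes (28.7% higher and 31.4% lower). Among the members, 7 of 9 genes had groups that did not overlap, against 68.1% of all genes.

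Among the other PCGF genes, Pcgf5, of a variant PRC1, fell 4.5-fold (-2.17 ± 0.18, with a second probe at -2.11 ± 0.14). Pcgf6, of the variant that silences germline genes in stem cells, rose (0.83 ± 0.23). Pcgf2, the closest relative of Bmi1, passed as higher (0.29 ± 0.12, adjusted p = 0.0325 by limma) but not with marked local backgrounds kept, no background subtraction, median centring or the authors' processed values, or without replicate 1 or 2. Pcgf1 (-0.01 ± 0.14) and Pcgf3 (-0.15 ± 0.16) did not pass. Of 8 genes in this group 2 were higher, 2 lower and 4 did not pass.

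Cbx7, the CBX protein of self-renewing stem cells, could not be tested, since its single probe was not well above background in either culture on any array. Its signals were 5.91, 6.03 and 6.13 with inhibitor and 6.09, 6.14 and 5.91 in the heterozygous cultures, and the lowest signals marked well above background on these arrays lay between 5.98 and 6.32. No fold is given for it. Where its relatives could be measured, Cbx2 rose (1.06 ± 0.16, or 2.09-fold) and Cbx6 rose (1.06 ± 0.15, with other probes at 0.84 ± 0.23 and 0.29 ± 0.11). Cbx8 passed as lower (-0.32 ± 0.20), but not with marked local backgrounds kept, median centring, the authors' processed values or without replicate 2.

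Polyhomeotic genes, whose proteins polymerise and compact canonical PRC1, also split. Phc1 rose 5.74-fold (2.52 ± 0.35), the highest ratio of the 64 tested genes of the Polycomb and Trithorax lists. Phc3 fell (-1.14 ± 0.15), and Phc2 (-0.17 ± 0.08) did not pass. Scml2, a Polycomb gene on the X chromosome, fell by its brightest probe (-0.65 ± 0.27), not by its other one (-0.12 ± 0.22), and not with marked local backgrounds kept or median centring. Scmh1 (-0.15 ± 0.17) and Scml4 (0.04 ± 0.08) did not pass. Of 10 tested genes of this group 3 were higher, 4 lower and 3 did not pass.

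**Figure D3:**
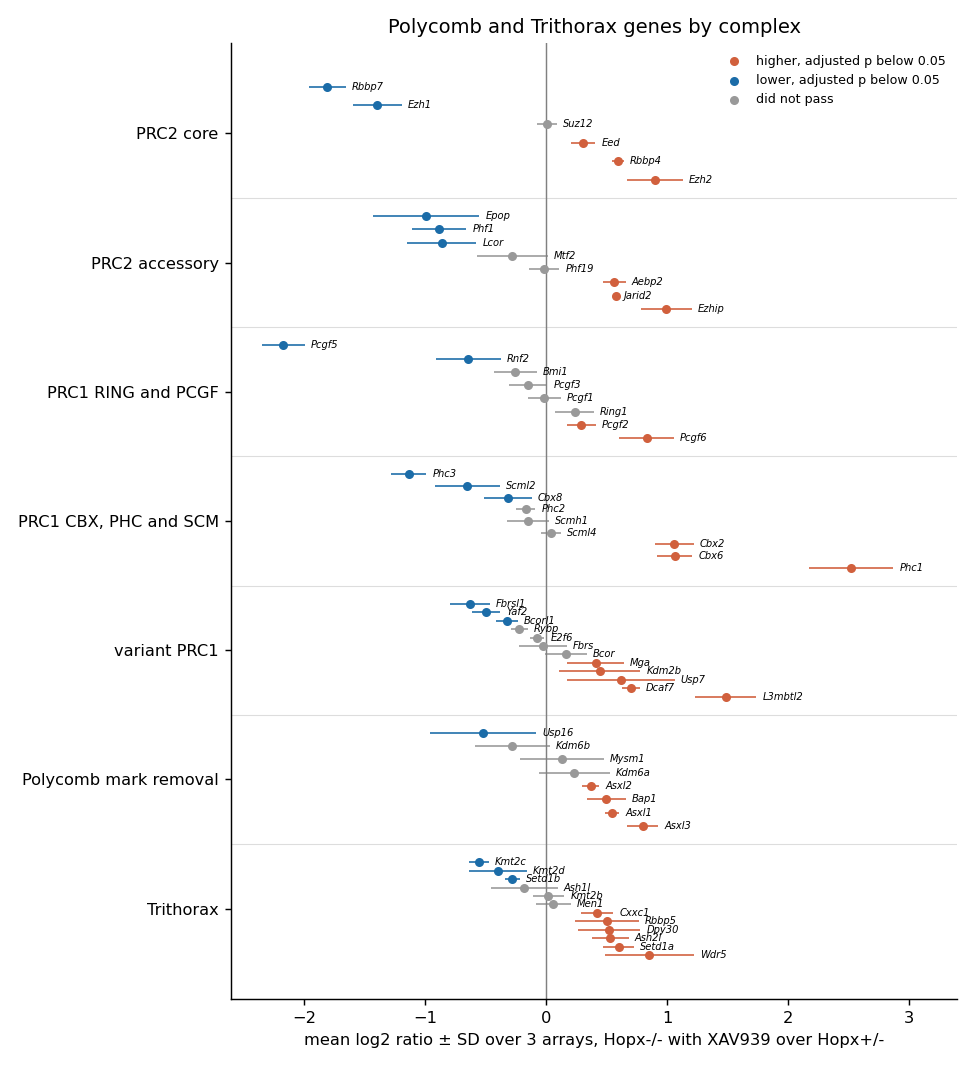
Mean log2 ratio with SD over the 3 arrays (x axis) of the tested genes of 7 Polycomb and Trithorax lists (y axis; 1 gene is not shown), coloured by whether they passed limma's test. Each list holds genes on both sides of 0, from Pcgf5 at -2.17 to Phc1 at 2.52.

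Variant PRC1 genes held 5 that rose, 3 that fell and 4 that did not pass, of 12 tested. L3mbtl2, which sits with Pcgf6 in the same complex, rose 2.8-fold (1.48 ± 0.25), and Dcaf7 (0.70 ± 0.07), the deubiquitinase gene Usp7 (0.62 ± 0.45) and the CpG island reader Kdm2b (0.44 ± 0.33) passed as well. The brightest Dcaf7 probe was the only one of 3 that passed (the others lay at -0.04 ± 0.16 and 0.12 ± 0.15). Usp7 was not called with marked local backgrounds kept or without replicate 2, and Kdm2b not under these, under median centring or without replicate 1. Those that fell were Fbrsl1 (-0.63 ± 0.16, not called with median centring), Yaf2 (-0.50 ± 0.12, not called with median centring or marked local backgrounds kept) and Bcorl1 (-0.33 ± 0.09, not called under either, nor with the authors' processed values, the mean over probes or without replicate 1 or 2). Rybp (-0.22 ± 0.07), Bcor (0.17 ± 0.17), E2f6 (-0.07 ± 0.06) and Fbrs (-0.02 ± 0.20) did not pass.

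Genes whose products remove the Polycomb marks, or belong to the deubiquitinase complex that does, held 4 that rose and 1 that fell of 8. Asxl3 (0.80 ± 0.13), Asxl1 (0.55 ± 0.06) and Bap1 (0.50 ± 0.16), of that complex, rose together, and the deubiquitinase gene Usp16 fell (-0.52 ± 0.44; not called with marked local backgrounds kept or median centring). Asxl2 was called higher by its brightest probe (0.37 ± 0.07) and lower by its other one (-0.84 ± 0.19), so its sign turned with the mean over probes; the call also ended with marked local backgrounds kept, median centring or without replicate 1 or 2. The histone demethylase genes Kdm6a (0.23 ± 0.29) and Kdm6b (-0.28 ± 0.31), which erase the PRC2 mark, and Mysm1 (0.13 ± 0.35) did not pass. Trithorax genes, which oppose Polycomb by methylating another lysine of histone H3, held 6 that rose and 3 that fell of 12. The shared core subunits Wdr5 (0.85 ± 0.37), Ash2l (0.53 ± 0.15) and Dpy30 (0.52 ± 0.26) and the methyltransferase gene Setd1a (0.60 ± 0.13) rose, while the methyltransferase genes Kmt2c (-0.55 ± 0.08) and Kmt2d (-0.40 ± 0.24) fell. Neither Kmt2c nor Kmt2d was called with median centring or marked local backgrounds kept; Kmt2d also missed the threshold with the authors' processed values and without replicate 1 or 2.

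Over the 7 lists, 26 of 64 tested genes were higher and 18 lower, or 68.8% called, with a median of 0.03; all genes had 64.5% called and a median of -0.01. The 35 tested PRC1 and PRC2 genes other than the members had 13 higher and 12 lower.

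Related subunits that can replace each other in the complexes were compared within each array, where a difference between their log2 ratios shows an unequal change. Of 9 pairs listed, 5 could be measured, since 4 involve Cbx7. By the brightest probe of each gene, the ratio of Ezh2 was higher than that of Ezh1 by 2.29 ± 0.24 (4.9-fold), in 3 of 3 arrays. The size of this difference depends on the Ezh1 probe. Ezh1 lay at -1.39 by its brightest probe, -0.91 by its second and -0.88 with the mean over probes. Rnf2 lay below Ring1 by 0.59, 1.08 and 0.96 (mean difference -0.88 ± 0.25), again on every array. Bmi1 lay below Pcgf2 on every array (-0.54 ± 0.23), and Mtf2 lay above Phf1 on every array (0.60 ± 0.45), by 0.09 in replicate 3 against 0.77 and 0.95. The difference between Mtf2 and Phf19 changed sign between arrays (-0.27 ± 0.32). In an exact two-sided sign-flip permutation test 4 of these pairs gave p = 0.25 (0.312 adjusted over the 5 pairs), the smallest that 3 arrays allow, so no pair could pass; Mtf2 against Phf19 gave 0.5.

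**Figure D4:**
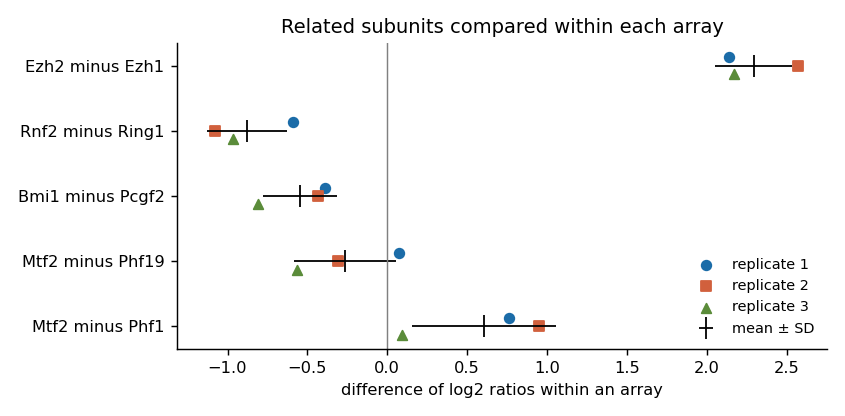
Difference between the log2 ratios of 2 related subunits within each array (x axis) for 5 pairs (y axis), with the mean and SD as bars. Each gene is read from its brightest tested probe. The difference of Ezh2 and Ezh1 lies between 2.14 and 2.57 on the 3 arrays, farther from 0 than that of any other pair shown.

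Genes that carry the PRC2 mark in embryonic stem cells, listed from general knowledge, moved both ways. Of 29 tested, 11 were higher and 12 lower, with a median of -0.03. Among all genes tested, 31.5% were higher and 33% lower, so these counts are no result about the targets as a group. The falls were led by the endoderm factors Foxa2 (-4.27 ± 0.14) and Sox17 (-2.53 ± 0.10), Tbx3 (-3.16 ± 0.24) and Msx2 (-2.35 ± 0.31). Foxa2 and Sox17 are also counted among the endoderm markers below. The rises were led by Hoxa11 (1.89 ± 0.20; heterozygous cultures above background on 2 of 3 arrays), Six2 (1.68 ± 0.31), the cell cycle inhibitor gene Cdkn2b (1.45 ± 0.19) and Hoxb8 (1.36 ± 0.76, with replicate 3 at 2.23 against 0.86 and 0.99). Hoxa11 and Hoxb8 were not called with marked local backgrounds kept. Cdkn2a, the classic target of Bmi1, lay at -0.06 ± 0.53, with replicate 3 on the other side of 0 from replicates 1 and 2.

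The cultures also differed in the RNA of cell cycle genes and of cell type marker genes. Cell cycle genes were higher in the null cultures with inhibitor for 13 of 15 tested markers and lower for none (median 0.90), with summed signals of 214820 to 235615 against 100781 to 113007 in the heterozygous cultures. Mcm3 (2.19 ± 0.26) and Mcm5 (1.84 ± 0.25) of the replicative helicase, Rrm2 (1.72 ± 0.19) and E2f1 (1.45 ± 0.15) led them. Of 16 pluripotency markers, 12 were higher and 3 lower (median 0.99), with sums of 144945 to 174258 against 50451 to 60608. Dnmt3b (3.83 ± 0.16) and Pou5f1 (2.50 ± 0.27) were among those that rose, and Klf4 (-2.55 ± 0.10) and Tfcp2l1 (-2.89 ± 0.11) fell. All 10 endoderm markers were lower (median -4.12; sums of 6145 to 11988 against 153625 to 170261), as were all 10 cardiomyocyte markers (median -1.52; 54950 to 67722 against 196413 to 217418). Each marker tested in these 4 lists exceeded background in both cultures on all 3 arrays. Of 8 fibroblast markers 5 were lower and 1 higher, of 7 endothelial and blood markers 6 were higher, and of 5 tested neural markers 3 were higher. Over all genes tested these shares were 31.5% higher and 33% lower. Hbb-bh1, called higher, lay at 0.66, -0.04 and 0.55 and was not called with the authors' processed values, among others. Kdr was not called with the mean over probes or without replicate 1, and Gata1 not with marked local backgrounds kept. The part of these shifts in the Polycomb values was not tested.

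**Figure D5:**
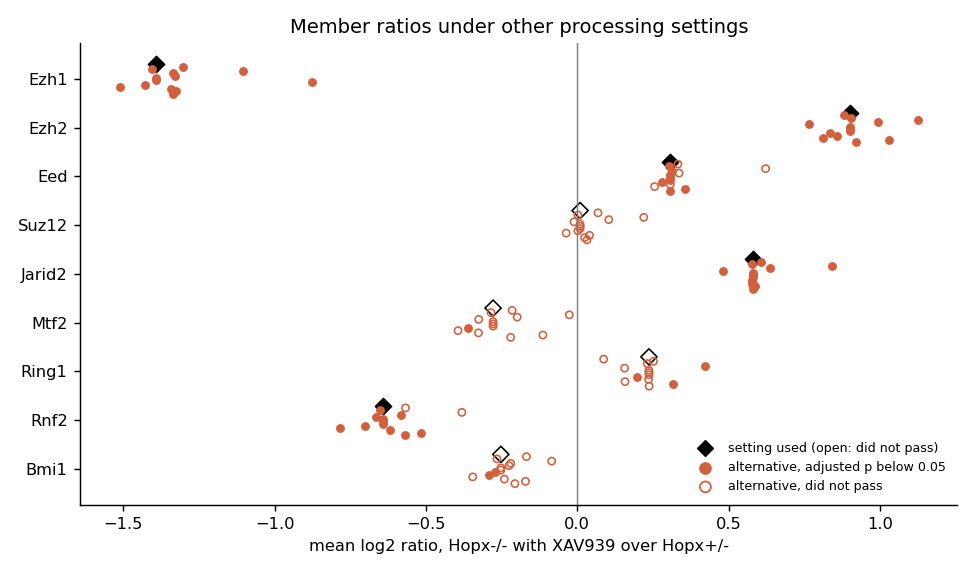
Mean log2 ratio (x axis) of the 9 tested Polycomb genes (y axis) under the setting used (diamonds) and under 13 alternatives with replicate 3 turned (circles; filled where limma's adjusted p was below 0.05). Ezh1, Ezh2 and Jarid2 are filled under all 13, whereas Eed and Rnf2 have open circles. Suz12 is open under all 13, and Mtf2, Ring1 and Bmi1 are mostly open.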

How the data were processed

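The members and gene lists were chosen with earlier results of these data known. Per the file headers, the deposited spot and background values are median pixel intensity per channel from Agilent Feature Extraction (version 11.5.1.1; 8.5.1.1 in the submitters' processing notes), on probe design 026655. Agilent's own log ratio, used as an alternative, is deposited in log10 units (red over green), per the file headers, and further columns hold 0 or 1 marks. The authors' value table was taken as log2, from slopes of 0.69, 0.80 and -0.80 on the scanner ratios; their normalization and centring (column medians 0.086, -0.08 and 0.053) are not given in the sources used here.

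Of 39429 probes, 28025 had 1 symbol through RefSeq accessions, 11404 none and 0 several. For each channel, limma's normexp (offset 50) was applied to the median signals, then loess within arrays, in limma 3.58.1 (R 4.3.3), leaving out outlier spots. Local backgrounds marked as outliers were replaced by the channel's median, and replicate 3 was turned; both follow an earlier look at these data. Signals by culture were further scaled between arrays (Aquantile). No fold is given for a probe not well above background in 1 culture on every array. The moderated test had 8.66 degrees of freedom and used the ratio within each array, which pairs both cultures. Named are all members, up to 4 passing genes per list and direction with 1 sign on all arrays, the related subunits, and Polycomb genes that did not pass; other genes were named after their values were seen. The values of 1 listed gene are not reported here, though the list counts and medians hold it. Replicate 1 was on 1 slide and replicates 2 and 3 on another.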

Additional observations from a re-analysis of the deposited data

How the results depend on the processing

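The 3 arrays of 1 comparison limit every value here, and Cbx7 had no signal above background. With marked local backgrounds kept, 2669 genes were higher and 2260 lower, with 1 member and 8 genes of the Polycomb and Trithorax lists lower (main values 4636, 4850, 2 and 18). Median centring gave 3039 and 2023, with 1 and 8 lower. With replicate 3 as labelled, limma called 0 in each of these counts. A dye term gave 4 members lower. The dye-term fit treats replicate 3 as a dye swap and fits it exactly, so its residual spread comes from replicates 1 and 2 alone. The causes were not tested. Leaving out each replicate gave 3505 to 5278 genes higher and 3711 to 5338 lower, 2 to 4 members higher and 2 to 2 lower, and 18 to 29 list genes higher and 14 to 20 lower. Without replicate 1, which leaves the slide of replicates 2 and 3, Ezh1 lay at -1.51, Ezh2 at 0.86, Jarid2 at 0.58 and Rnf2 at -0.78. Counting each slide once, chosen after seeing the data, changed no member's call. That fit averages replicates 2 and 3, so the difference between them does not enter its spread. It called more genes than the main fit, 4783 higher and 5010 lower, so it is not a stricter test of the calls. The slide as a random block could not be fitted, since limma estimates no block correlation from 3 arrays. The sign of each mean difference between related subunits was the same under the other background and normalization settings and with the authors' values. The sign on single arrays was less stable. It was no longer the same on every array for Bmi1 minus Pcgf2 with marked local backgrounds kept (mean -0.36). The same held for Mtf2 minus Phf1 with the authors' values (mean 0.22). No paired analysis was possible because the arrays form 1 group, so no replicate block can be added to the pairing of both cultures within each array that every ratio already holds.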
